A study of Rattus norvegicus with 6 samples.

Results

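The 9 genes described here encode the immunoproteasome and the machinery that loads peptides onto MHC class I molecules. They were chosen by the gene symbol of the array's probe annotation and are Psmb8, Psmb9 and Psmb10, Psme1 and Psme2, Tap1, Tap2 and Tapbp, and B2m. All 9 were found, among 14217 genes with a probe set of their own. They are measured by 12 of the 20826 probe sets that belong to a single gene, and where a gene has several, the brightest on average leads. Spinal cord cells of rats aged P1 to P4 were grown for just over a week on glass covered with multiwalled carbon nanotubes (CNT cultures, n = 3) or on glass coated with polyornithine (control cultures, n = 3), and nerve growth factor was in the medium of both. The strain is Sprague-Dawley by the labels and Wistar by the study's methods. Each array holds the RNA of 1 culture from an unsorted mixture of neurons, glia and other cells. Values are log2 expression from RMA, an algorithm that corrects background, normalizes arrays to each other and summarises the probes of a probe set. A difference of 1 is therefore a doubling.

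Cells display fragments of their own proteins on MHC class I molecules, where T cells inspect them. The fragments are cut by the proteasome. Its core, when newly assembled in cells exposed to interferon, takes up Psmb8, Psmb9 and Psmb10 in place of the constitutive catalytic beta subunits. Psme1 and Psme2 form the PA28 cap, which opens this core. The peptides are pumped into the endoplasmic reticulum by the transporter made of Tap1 and Tap2, and the chaperone tapasin (Tapbp) holds the transporter beside the empty class I molecule. B2m, or beta-2 microglobulin, is the light chain of every class I molecule. In the central nervous system most cells display few class I molecules at rest, and microglia are among the cells that display more of them during inflammation.

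The promoters of these genes are shown first, since the genes had higher means together. The interferon-stimulated response element is the site bound by interferon regulatory factors, and it was searched for as GAAA, any 2 bases and GAAA again, on both strands of the window from 250 bases before to 50 bases after each gene's start (RefSeq, build GRCr8). All 9 genes have such a window. The start used is not always the outer end of the annotated gene. For Psme2, Tapbp and B2m it lies inside the gene, and the whole window of Psme2 does. The letters are present in 7 of the 9, those of Psmb8, Psmb10, Psme2, Tap1, Tap2, Tapbp and B2m, against 3.92% of 33469 windows of this length. The windows of Psmb5, Psmb6 and Psmb7, the constitutive counterparts, hold no match. Each match is printed next with its surroundings on the strand of the gene, with the match in capitals, and a match on the opposite strand begins with TTTC. The site of Psmb8 overlaps the annotated start, and in Tapbp 2 matches overlap, of which the one nearer the start is shown.
Psmb8 (chr20:4657016-4657045, minus strand): gtgctgtggcTTTCGCTTTCacttccttgt
Psmb10, site far from the start (chr19:50743346-50743375, minus strand): aagcaaaggcGAAAGTGAAAgagaagatgc
Psmb10, site near the start (chr19:50743290-50743319, minus strand): agtggggggtGAAAGCGAAAgtaggaagcg
Psme2 (chr15:33052785-33052814, minus strand): cctggagagtGAAAGCGAAAgctggggctg
Tap2 (chr20:4652318-4652347, minus strand): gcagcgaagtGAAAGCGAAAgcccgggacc
Tapbp (chr20:4967878-4967907, minus strand): gagggaaaatGAAAGTGAAAggaaacagac
B2m (chr3:129549170-129549199, plus strand): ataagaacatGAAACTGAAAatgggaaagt

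The letters GAAAGCGAAA, read on either strand, recur in Psmb8, Psmb10, Psme2 and Tap2. The next stretch shows the 250 bases before the start of Tap1 (chr20:4668544-4668793, minus strand), which lie wholly between Tap1 and its divergent neighbour Psmb9. The capitals mark the interferon-type match TTTCGGTTTC and the match GGGACTTTCC to the kappaB letters (GGG, any 2 bases, TTTCC), the site type of NF-kappaB.
Tap1 to Psmb9 interval: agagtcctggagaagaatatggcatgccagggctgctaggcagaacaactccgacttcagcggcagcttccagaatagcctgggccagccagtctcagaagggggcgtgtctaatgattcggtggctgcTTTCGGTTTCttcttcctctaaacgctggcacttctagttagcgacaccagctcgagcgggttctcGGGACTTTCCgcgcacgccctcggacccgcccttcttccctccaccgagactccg
The kappaB letters, which were searched on both strands, are present in 3 of the 9 windows (Tap1, Tapbp and B2m), against 1.53% of all windows. In B2m the kappaB match lies a few bases from the interferon-type match. The letters TTCNNNGAA of the GAS element, the site of STAT dimers, are present in 1 of the 9 windows, that of Psmb8, against 8.87% of all windows. A match describes letters and was not tested as a site.

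All 9 genes had a higher mean in CNT than in control cultures, against 58.5% of the 14217 genes. Their median log2 difference was 0.67, a fold of 1.59, and over all genes the median was 0.03. The folds ran from 1.14 for B2m to 2.22 for Tap1, and 6 of the 9 exceeded 1.5-fold. In limma, fitted across all genes with Benjamini-Hochberg adjustment, none of the 9 passed a threshold of 0.05 (adjusted p = 0.999 for each), and 0% of all genes passed as higher. At an unadjusted p under 0.05, 7 of the 9 were higher, all but Tap2 and B2m, against 2.41% of all genes. That count was 3 without control 1, control 2 or CNT 3 (against 1.47%, 1.37% and 3.62% of all genes, in this order), 4 without CNT 2 (1.08%) and 8 without control 3 (4.71%). The rank product, which ranks genes within pairs of equal replicate number, called 0 of the 9, against 0.513% of all genes. The groups were separate, with the lowest CNT culture above the highest control culture, in 5 of the 9 genes (Psmb8, Psmb10, Psme1, Psme2 and Tapbp), against 5.94% of all genes. None of the 9 was separate in the other direction, against 2.05% of all genes. Control 3 was the highest control for all 9 genes. Without it the groups were separate in all 9, against 12.9% of all genes. The separate genes were 5 without control 1, control 2 or CNT 3 (11.6%, 10.1% and 17.0% of all genes, in this order). They were 7 without CNT 1 or CNT 2 (11.1% and 8.5%). With 3 arrays against 3, 0.1 is the smallest p that an exact two-sided permutation test can reach. In RNA from whole cultures, more cells of a type and more RNA per cell cannot be told apart.

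Of the 3 catalytic immunosubunits, Psmb8 was the most uniform. Psmb8, which replaces Psmb5 and carries the chymotrypsin-like activity, had log2 values of 12.31, 12.35 and 12.42 in CNT cultures 1, 2 and 3, against 11.24, 11.29 and 11.65 in control cultures 1, 2 and 3. The 3 CNT cultures lay close together and all far above the controls. This is a fold of 1.95 (log2 difference 0.97, standard error 0.14), and by unadjusted p Psmb8 ranked 5 among the 14217 genes.

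Psmb9, which replaces Psmb6, had log2 values of 12.01, 12.25 and 12.65 in CNT cultures and of 10.96, 10.91 and 12.04 in control cultures. Control 3 stood more than 1 log2 unit above the other controls and just above CNT 1, so that the groups overlapped. The fold was 2.00 (log2 difference 1.00, standard error 0.34), and it was 1.74 without control 2 and 2.57 without control 3. Psmb10, which replaces Psmb7, had log2 values of 11.50, 11.80 and 11.74 in CNT cultures, against 10.67, 10.84 and 11.21 in control cultures. Here the groups were separate, with a fold of 1.71 (log2 difference 0.77, standard error 0.17).

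**Figure D1:**
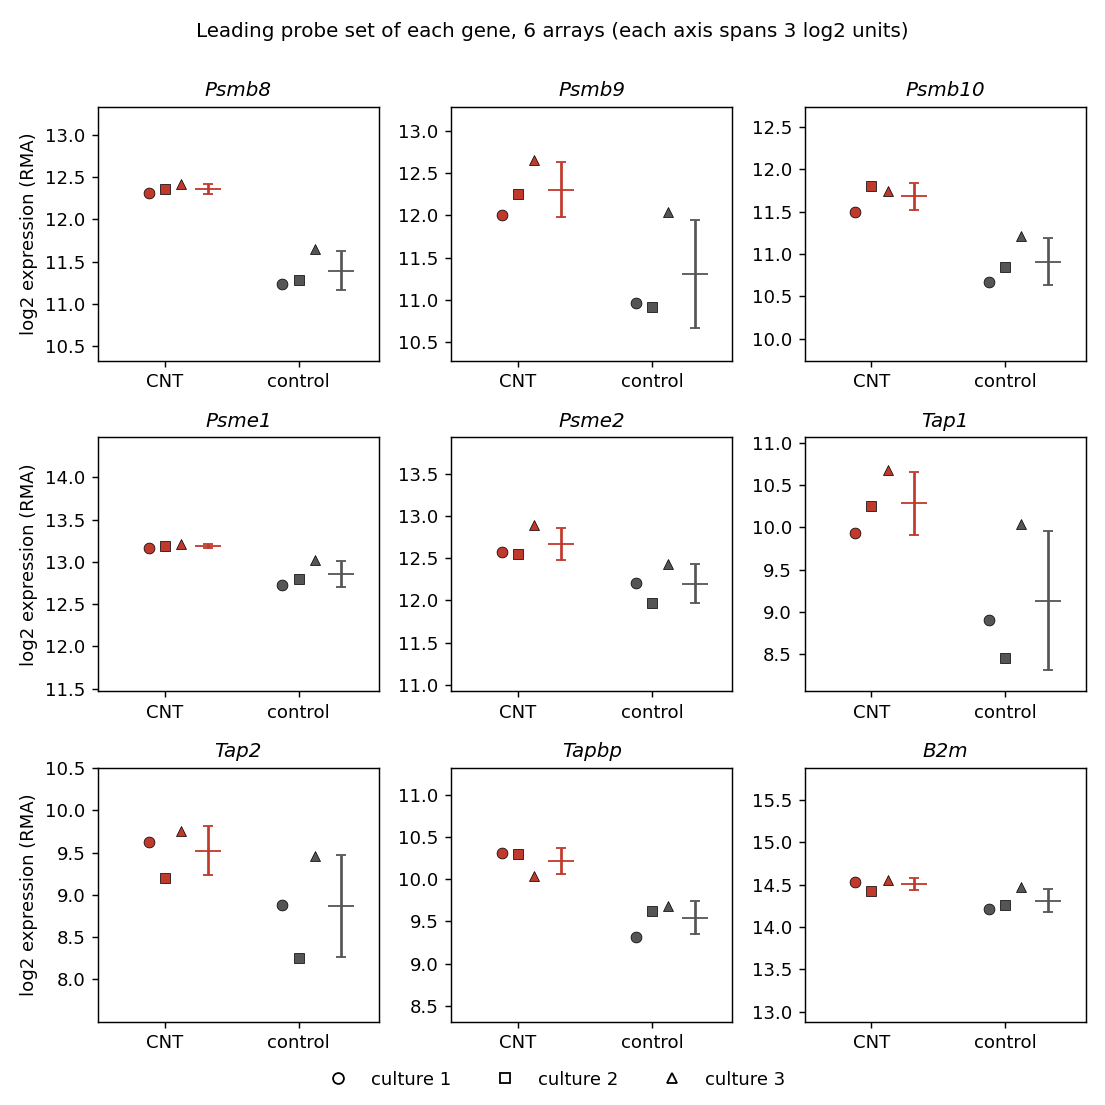
Log2 expression (RMA) of the leading probe set of each of the 9 genes, with CNT cultures in red on the left, control cultures in grey on the right and a marker shape for each culture number. Each line is a group mean with its SD as a bar (n = 3), and control 3, the grey triangle, is the highest control in all 9 genes.

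Within each array, the log2 value of an immunosubunit was also set against that of the constitutive subunit it replaces, as their difference. This compares mRNA levels and does not measure the subunits in the proteasome. Levels of different probe sets are not comparable, so only the shift of this difference between the groups carries information. For Psmb8 minus Psmb5 it was -1.39, -1.23 and -1.19 in CNT cultures and -2.36, -2.31 and -1.88 in control cultures, a shift of 0.91 or 1.88-fold. For Psmb10 minus Psmb7 it was -1.38, -0.67 and -0.84 in CNT cultures and -1.93, -1.87 and -1.42 in control cultures, a shift of 0.78 or 1.71-fold. The groups did not overlap in either pair, although CNT 1 and control 3 came close for Psmb10 minus Psmb7. The exact two-sided permutation test over samples gave p = 0.1 for both, before and after adjustment over the 2 pairs, which is the smallest value it can give. The constitutive subunits themselves had small differences, with log2 differences of 0.05 (standard error 0.09) for Psmb5 and -0.00 (standard error 0.13) for Psmb7, and the groups overlapped in both, so that the shifts are close to the differences of Psmb8 and Psmb10 alone. The probe set of Psmb6 is paired with a second gene as well, so Psmb9 was not set against it.

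**Figure D2:**
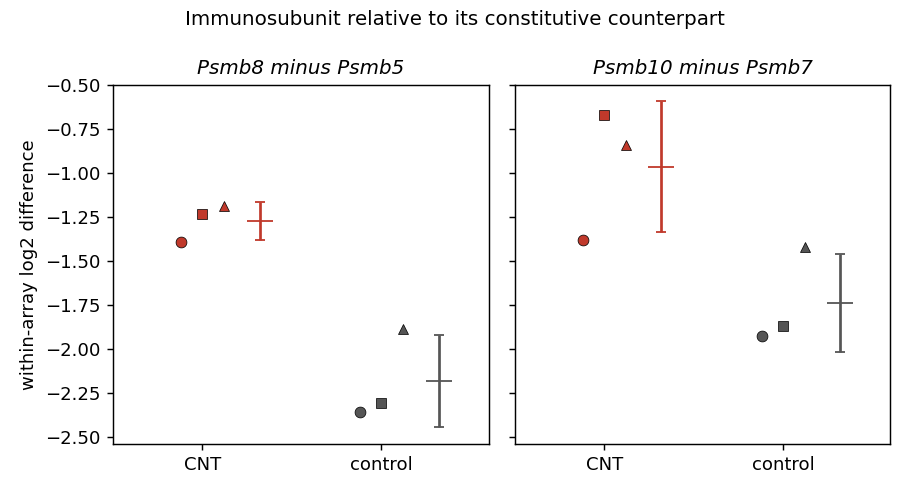
Within-array log2 difference between Psmb8 and Psmb5 and between Psmb10 and Psmb7, with CNT cultures in red on the left and control cultures in grey on the right. Marker shapes are culture numbers, a line with a bar gives the group mean and SD (n = 3), and the mean shift is 0.91 in the left panel and 0.78 in the right panel.

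The PA28 genes had smaller folds than the catalytic immunosubunits. Psme1, which encodes the alpha subunit, had log2 values of 13.16, 13.19 and 13.21 in CNT cultures, against 12.73, 12.80 and 13.03 in control cultures. Psme2, the beta subunit, had log2 values of 12.57, 12.55 and 12.89 in CNT cultures, against 12.20, 11.97 and 12.43 in control cultures. Both genes had separate groups, with folds of 1.26 for Psme1 (log2 difference 0.34, standard error 0.11) and 1.38 for Psme2 (log2 difference 0.47, standard error 0.16). The second, dimmer probe set of Psme1 gave a fold of 1.16. Its groups were only just separate, with 7.41 in CNT 3 and 7.39 in control 3. The subunits form one ring, and Psme1 is the one of the pair whose promoter window holds no interferon-type match. Psmb9, whose window also holds no such match, had a fold of 2.00. The match printed for Tap1 lies in the interval between Tap1 and Psmb9, beyond the reach of the Psmb9 window. Among the genes with a match, the folds ran from 1.14 for B2m to 2.22 for Tap1. Whether a match bears on the fold was not tested.

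In the peptide transporter, Tap1 had the widest spread between control cultures of the 9 genes. Tap1, one of the transporter's subunits, had log2 values of 9.93, 10.25 and 10.67 in CNT cultures, against 8.90, 8.45 and 10.04 in control cultures. Control 3 exceeded CNT 1, and the other controls lay more than 1 log2 unit below it. The fold of 2.22 (log2 difference 1.15, standard error 0.43) was the highest of the 9, and it was 3.05 without control 3 and 1.76 without control 2. The dimmer Tap1 probe set had log2 values of 6.49, 6.56 and 6.27 in CNT cultures, against 5.88, 6.28 and 6.09 in control cultures, a fold of 1.28. Its CNT 3 and control 2 values overlapped, so that its order of cultures is not that of the leading probe set.

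Tap2, the partner of Tap1, had log2 values of 9.63, 9.19 and 9.75 in CNT cultures, against 8.87, 8.25 and 9.46 in control cultures. Control 3 lay between the CNT values, and the fold was 1.58 (log2 difference 0.66, standard error 0.32). Without control 2 the log2 difference of Tap2 was 0.36 and without control 3 it was 0.96. Tapbp (tapasin) had log2 values of 10.31, 10.30 and 10.04 in CNT cultures, against 9.32, 9.62 and 9.69 in control cultures. Its groups were separate, with a fold of 1.59 (log2 difference 0.67, standard error 0.14), and it is the only one of the 9 in which CNT 3 was the lowest CNT culture.

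B2m, the light chain, had log2 values of 14.53, 14.42 and 14.56 in CNT cultures, against 14.21, 14.26 and 14.47 in control cultures. The groups overlapped at control 3 and the fold of 1.14 (log2 difference 0.19, standard error 0.11) was the lowest of the 9. This probe set lies near the top of the scale, as the highest value on any array is 14.85. The second B2m probe set, which is dimmer, had log2 values of 13.29, 13.32 and 13.28 in CNT cultures and of 12.48, 12.88 and 13.12 in control cultures. There every CNT culture lay above every control, with a fold of 1.39. All 12 probe sets of the 9 genes had a higher mean in CNT cultures, and 7 of them had separate groups, against 5.53% of the 20826 probe sets with the CNT cultures above.

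**Figure D3:**
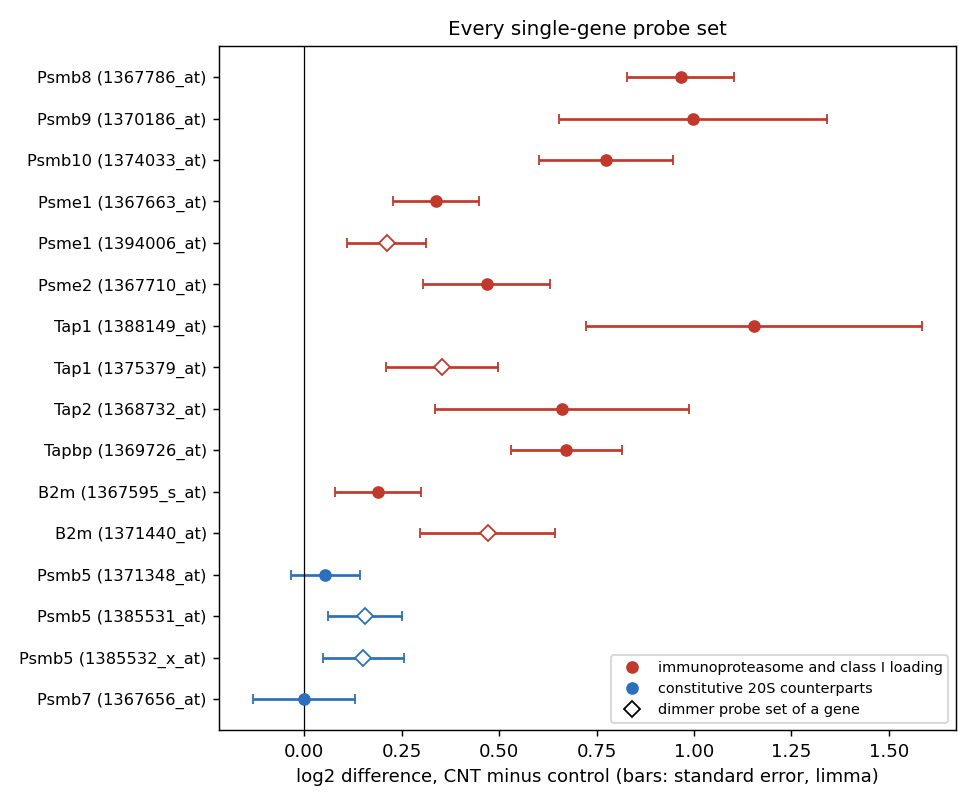
Log2 difference, CNT minus control, of every single-gene probe set of the 9 genes (red) and of Psmb5 and Psmb7 (blue), with the standard error from limma fitted over all probe sets. Open diamonds are the dimmer probe sets of a gene, and B2m is the gene whose dimmer probe set had the larger fold, 1.39 against 1.14.

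Control 3 was the highest control culture for all 9 genes, and the lowest was control 1 for 5 and control 2 for 4. CNT 3 was the highest CNT culture for 7 genes. The mean of the 9 genes on an array, each relative to its own mean over the 6 arrays, was 0.26, 0.30 and 0.48 in CNT cultures 1, 2 and 3 and -0.50, -0.58 and 0.04 in control cultures 1, 2 and 3. Control 3 thus stood between the other controls and the CNT cultures. The 5 other genes whose values most resembled this mean over the 6 arrays were Bst2, Irgm2, Helz2, Gchfr and Usp18, with a Pearson r from 0.993 to 0.998. Since the groups differ in these genes, r here mostly describes the step between them. Bst2 had log2 values of 12.34, 12.40 and 12.85 in CNT cultures and of 10.89, 10.56 and 11.89 in control cultures, where control 3 was again the highest control.

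Microglia and macrophages are among the cells that present peptides on class I molecules. Of 20 of their markers measured, 19 had a higher mean in CNT cultures (58.5% of all genes did), with a median log2 difference of 0.32, and 3 had separate groups (5.94% of all genes). None passed limma, and 2 were higher at an unadjusted p under 0.05 (2.41% of all genes). Their summed unlogged level ran from 164046 to 214705 in CNT cultures and from 120523 to 177325 in control cultures. Aif1, which encodes Iba1, had log2 values of 12.87, 13.15 and 12.52 in CNT cultures, against 11.98, 12.67 and 12.78 in control cultures. The order of cultures differed from that of the 9 genes, since the mean marker score was lowest among CNT cultures in CNT 3 (-0.12, against 0.25 and 0.39), where the 9 genes were highest. In controls the marker score was -0.64, 0.05 and 0.07. The part of these cells in the result was not tested. Of 16 T and NK cell markers 16 had a higher mean in CNT cultures, with a median of 0.11, and Lck alone had separate groups (5.94% of all genes). The brightest were Cd8a and Cd8b, with log2 means of 10.02 and 9.77 in CNT cultures. Cd247 and Gzmb averaged 6.55 and 5.22 there, below the array medians of 8.18 to 8.25. Whether T or NK cells were present was not tested. The summed level of this list ran from 2440 to 4745 in CNT cultures and from 2382 to 3952 in control cultures. Markers of neurons, astrocytes and oligodendrocytes were present on all arrays, as the label of spinal cord culture implies, and their medians were -0.08, -0.09 and 0.04. Of 14 fibroblast markers 1 was higher on average in CNT cultures (median -0.48), of 9 endothelial markers 9 were (median 0.16), and of 4 B cell markers 4 were (median 0.05). RNA quality can be read from the beta-actin control probes, whose 3' minus 5' log2 difference was 0.92 to 2.20 in CNT cultures and 0.62 to 2.20 in control cultures. Without the arrays of the largest difference, control 1 and CNT 2, the median of the 9 genes was 0.59. In limma on the arrays left, 3 of the 9 were higher at an unadjusted p under 0.05, against 0.513% of all genes.

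The rest of the proteasome showed no such shift. Of 11 other 20S core subunits, 10 had a higher mean in CNT cultures (58.5% of all genes did), but the median log2 difference was 0.09. Their folds ran from 0.949 to 1.09, and 1 (Psmb4) had separate groups with CNT above (5.94% of all genes). The 21 subunits of the 19S cap, which recognises ubiquitin, had a median of 0.03 and folds from 0.961 to 1.12, and none had separate groups. None of these genes had an unadjusted p under 0.05 or passed limma. Pomp, the chaperone that assembles new proteasome cores and favours Psmb8, had a log2 difference of 0.15 (standard error 0.11). Psme4, another cap, had one of -0.17 (standard error 0.12), and the median over the 7 other caps and assembly factors measured was 0.06.

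The class I heavy chains, which bind the peptide, had the same direction as the loading genes. Of 17 class I and class I-like genes measured, 16 had a higher mean in CNT cultures (58.5% of all genes did). Their median log2 difference was 0.71, and 7 had separate groups with CNT above (5.94% of all genes). RT1-A, a classical heavy chain, had log2 values of 9.22, 9.10 and 8.72 in CNT cultures, against 7.70, 8.28 and 8.09 in control cultures, a fold of 1.99. RT1-T24-3 had a fold of 4.70 (log2 difference 2.23, standard error 0.55) and RT1-N2 one of 2.78 (log2 difference 1.48, standard error 0.39). The RT1 heavy chains are a multigene family, and whether these probe sets tell its members apart was not tested. The single lower gene was Fcgrt, the neonatal Fc receptor, which pairs with B2m but presents no peptide. It was picked out after its values were seen and had log2 values of 11.32, 11.03 and 11.70 in CNT cultures, all below the 12.01, 11.81 and 11.87 of control cultures. No gene of this list passed limma. At an unadjusted p under 0.05 there were 7 higher and 1 lower, against 2.41% and 0.71% of all genes.

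The general chaperones and peptidases of the pathway did not share the shift. Of 14 measured, 3 had a higher mean in CNT cultures (58.5% of all genes did), with a median log2 difference of -0.07 and folds from 0.807 to 1.19. Pdia3, the disulfide isomerase of the loading complex, had a log2 difference of -0.13 (standard error 0.11) and Canx, which folds new heavy chains, one of -0.06 (standard error 0.09). Lap3, a cytosolic aminopeptidase, had the highest fold of this list (1.19). No gene of this list passed limma or had an unadjusted p under 0.05.

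Among 13 regulators of class I genes, 12 had a positive log2 difference (58.5% of all genes did), with a median of 0.20. The groups were separate in 3, with CNT above (5.94% of all genes). Nlrc5, the transactivator of class I genes, had log2 values of 7.95, 8.59 and 8.51 in CNT cultures, against 6.42, 7.13 and 7.89 in control cultures, a fold of 2.30. Irf9 and Stat2, partners in the factor that answers type I interferon, had folds of 1.74 (log2 difference 0.80, standard error 0.16) and 1.75 (log2 difference 0.81, standard error 0.25). Rfxank had a log2 difference of 0.41 (standard error 0.28) and Nfkb1 one of 0.05 (standard error 0.13), both with overlapping groups. None of the 13 passed limma, and 3 were higher at an unadjusted p under 0.05 (2.41% of all genes).

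**Figure D4:**
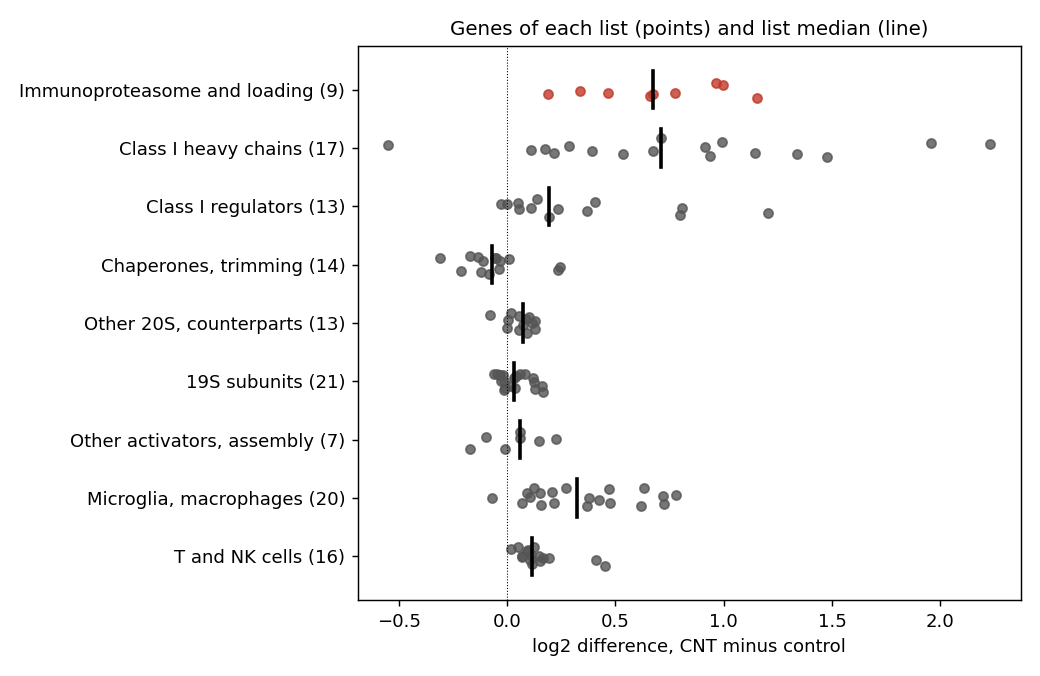
Log2 difference, CNT minus control, of each gene (points) and the median (line) for the 9 genes in red and for other lists in grey, with the number of genes measured in parentheses. The 9 genes have a median of 0.67 and the class I heavy chains one of 0.71, while the 19S subunits have one of 0.03.

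Tap2, Psmb8, Tap1 and Psmb9 lie side by side within the MHC class II region of chromosome 20, and Tapbp lies farther along the same chromosome. The 6 measured genes nearest to this block were RT1-Db1, RT1-Ba and RT1-Bb on one side and RT1-DMb, RT1-DMa and Brd2 on the other. Their log2 differences ran from -0.13 (standard error 0.31) for Brd2 to 0.37 (standard error 0.26) for RT1-DMb, and the groups overlapped in each. Zbtb22, next to Tapbp, had a log2 difference of 0.04 (standard error 0.13). Over the 31 nearest measured genes of all 9, the median was 0.07, with 19 above 0 (58.5% of all genes were), and 4 had separate groups, all higher (5.94% of all genes). These were Irf9 and Rnf31 beside the PA28 genes, Pskh1 beside Psmb10 and Daxx beside Tapbp. The highest fold of the 31 was 1.85, that of Dpep2 near Psmb10 (log2 difference 0.89, standard error 0.37), with overlapping groups.

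**Figure D5:**
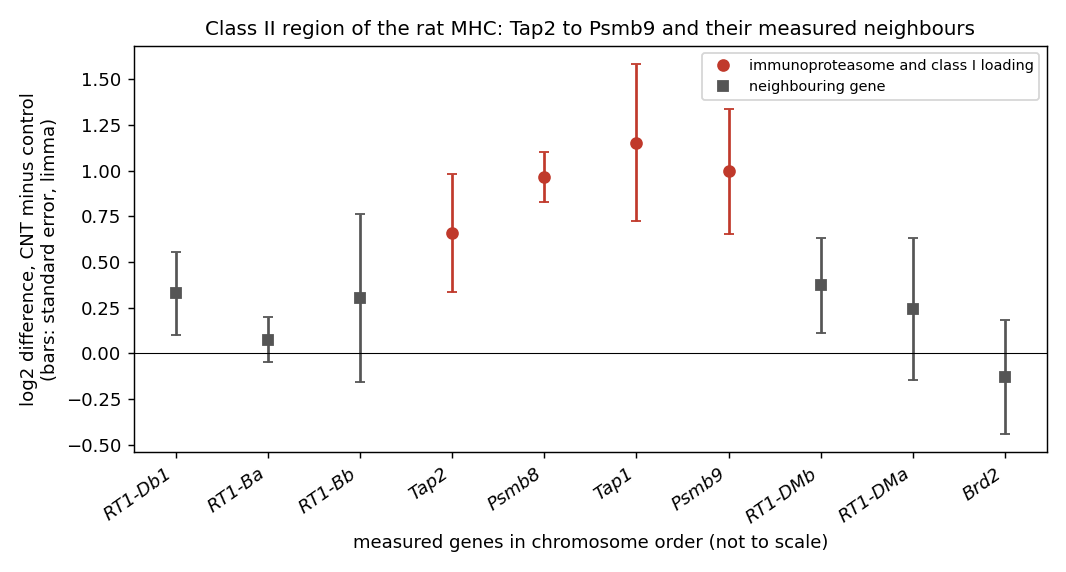
Log2 difference, CNT minus control, of Tap2, Psmb8, Tap1 and Psmb9 (red circles) and of the 3 nearest measured genes on each side (grey squares) in RefSeq order, not to scale. Bars are standard errors from limma, the block runs from 0.66 to 1.15 and the neighbours from -0.13 to 0.37.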

How the data were processed

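The labels describe 3 CNT and 3 control cultures, and the RNA of each (100 ng) was amplified and hybridized to its own Affymetrix rat genome array. The authors deposited log2 expression made with RMA (version not given in the sources used here) for 31099 probe sets, and no value was normalized again in the main analysis. Probe sets of several genes (436), of none, and the 57 controls were left out, and genes were named from the platform annotation. CNT and control cultures were compared unpaired in limma 3.58.1 (lmFit, eBayes; R 4.3.3), tested on simulated data, over 14217 genes. The number of arrays limits the precision. Within-array differences were compared with an exact permutation test. The genes and the 21 lists were chosen with earlier results of these data known. Named were the 9 genes, Psmb5 and Psmb7, from each list the 4 genes lowest in unadjusted p and the 2 brightest, at most, the 3 nearest measured genes on each side (RefSeq order, GRCr8) and the 5 most similar genes, while Aif1, Fcgrt and Ifng were named outside this rule, after their values were seen. Alternatives were array weights, robust moderation with a trend, a replicate block, other probe set rules, leaving out the dimmest 30% of genes, 3 normalizations, leaving out arrays, and a rank product. The study's own analysis used custom probe set files and the rank product. Protein sequences were not used here.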

Additional observations from a re-analysis of the deposited data

How the results depend on the processing

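Each of the 9 genes kept a positive log2 difference under all 16 other settings of the fit (144 of 144 values), and none passed limma under any, with adjusted p from 0.126 to 1.00. The lowest was that of Psmb8 without control 3. The rank product over 3 pairs of equal number called none of the 9 (adjusted p = 0.0501 for Tap1 and 0.0731 for Psmb8 and Psmb9) and 0.513% of all genes. Leaving out each array in turn gave 0 of the 9 past limma throughout (2 other genes passed without control 3), 5 to 9 genes with separate groups (9 without control 3), a median log2 difference from 0.63 to 0.93 and a shift of the immunosubunits against their counterparts from 0.75 to 1.00 (median of both pairs, 0.84 with all arrays). Fewer arrays make separate groups easier to reach: 12.9% of all genes had them without control 3. Averaging the probe sets of each gene gave 7 with separate groups (6.29% of all genes), and cyclic loess gave 6 (4.31%). Samples of equal number were not treated as pairs: their deviations from the group means correlated at -0.13, 0.36 and 0.51 over genes for numbers 1, 2 and 3. Between unequal numbers the correlation ran from -0.71 (CNT 3 with control 2) to 0.68 (CNT 1 with control 2). Whether a number marks a shared culture series is not given in the labels. With the replicate block the median stayed at 0.67, none of the 9 passed limma, and 8 instead of 7 had an unadjusted p under 0.05, against 3.50% instead of 2.41% of all genes.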

Other observations

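The interferons that were measured had low values. Of 18 listed interferon, receptor and signalling genes 12 were measured, so the interferon family is not fully covered. Ifnb1, a type I interferon, had log2 values of 5.38, 5.53 and 5.91 in CNT cultures, against 4.99, 5.14 and 5.62 in control cultures, with overlapping groups. Ifng, the interferon of T and NK cells, averaged 4.51 in CNT and 4.46 in control cultures and was named after its values were seen. Of the receptor chains, Ifnar2 had a log2 difference of 0.45 (standard error 0.19), Ifngr2 of 0.25 (standard error 0.13) and Ifngr1 of -0.03 (standard error 0.25). None of the 12 genes of this list passed limma, and 2 were higher at an unadjusted p under 0.05 (2.41% of all genes). These were Ifnar2 and Usp18, which is neither an interferon nor a receptor and had a fold of 6.12. Of 6 ubiquitin-like proteins and their conjugating enzymes, 5 had a higher mean in CNT cultures (58.5% of all genes did). Isg15 had a log2 difference of 2.79 (standard error 0.86) and Uba7, its activating enzyme, one of 1.25 (standard error 0.17).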
